A study of Mus musculus with 6 samples.

Results

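Interferon-response and class I antigen presentation genes were followed as 39 named genes among the 55413 gene records of an RNA-seq table of differentiated C2C12 cells. The genes were listed by name for their known roles, with earlier results of these data known, and each name had a single record. C2C12 is a mouse myoblast line whose cells leave the cell cycle and fuse into myotubes when serum is lowered. The 6 libraries fall into 2 genotypes with 3 replicates each, WT and FHL3 KO, a knockout of the LIM-domain protein FHL3. All 6 libraries share the same handling: growth in 10% fetal bovine serum, a switch to 2% horse serum, and collection on day 4 of differentiation. No group received interferon, a virus or nucleic acid according to the labels, so the genes were measured in cells without a stated immune stimulus. The labels name no clone for the knockout, so the genotype cannot be told apart from the clone. Nor do they say whether replicates were separate cultures, so the p-values cover the spread among these samples alone, and that spread may be technical. The values are read as FPKM, levels of RNA per length of transcript and per size of the library, so that levels can be set side by side between genes. The libraries are bulk RNA, in which fewer cells of a type and less RNA per cell cannot be told apart.

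Interferons are secreted proteins that warn cells of infection. Type I interferons bind the receptor chains Ifnar1 and Ifnar2, whose kinases Jak1 and Tyk2 act on Stat2, among others. Stat2 and Irf9 are part of a complex that binds the interferon-stimulated response element, a DNA motif built of repeated GAAA blocks, while interferon gamma acts through a palindromic GAS motif. The target genes encode RNA sensors, antiviral effectors and much of the class I pathway. In that pathway the proteasome cuts proteins into peptides, Tap1 and Tap2 carry them into the endoplasmic reticulum, and Tapbp helps load them onto a class I heavy chain paired with B2m. Resting muscle cells are known to carry little class I protein.

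Promoters of 4 members that fell in the libraries labelled FHL3 KO are shown because they hold the letters of the interferon-stimulated response element. They are taken from RefSeq (GRCm38.p6), run 5′ to 3′ on the strand of the gene from 250 bases before to 50 bases after its start, and carry in capitals every match, on either strand, of the letters GAAANN followed directly by GAAA, which are called the GAAA pair here. Isg15 (chr4:156200769-156201068, minus strand) holds 3 overlapping matches, whose first bases lie at -78, -72 and -66 from the start. Bst2 (chr8:71537423-71537722, minus strand) holds 2 overlapping matches, and Ddx58 (chr4:40239776-40240075, minus strand) and Stat2 (chr10:128270248-128270547, plus strand) hold 1 match each, on the opposite strand.
Isg15: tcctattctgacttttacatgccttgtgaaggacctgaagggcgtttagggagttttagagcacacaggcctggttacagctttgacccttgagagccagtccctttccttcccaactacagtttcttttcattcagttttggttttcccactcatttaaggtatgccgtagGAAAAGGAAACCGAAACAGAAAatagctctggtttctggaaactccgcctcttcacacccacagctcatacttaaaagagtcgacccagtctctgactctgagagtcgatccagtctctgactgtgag
Bst2: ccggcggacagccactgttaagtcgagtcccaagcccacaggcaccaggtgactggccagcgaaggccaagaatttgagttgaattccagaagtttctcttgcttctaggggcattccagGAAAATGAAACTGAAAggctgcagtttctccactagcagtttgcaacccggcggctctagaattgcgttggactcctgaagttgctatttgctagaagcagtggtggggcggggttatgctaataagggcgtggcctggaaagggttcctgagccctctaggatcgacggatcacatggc
Ddx58: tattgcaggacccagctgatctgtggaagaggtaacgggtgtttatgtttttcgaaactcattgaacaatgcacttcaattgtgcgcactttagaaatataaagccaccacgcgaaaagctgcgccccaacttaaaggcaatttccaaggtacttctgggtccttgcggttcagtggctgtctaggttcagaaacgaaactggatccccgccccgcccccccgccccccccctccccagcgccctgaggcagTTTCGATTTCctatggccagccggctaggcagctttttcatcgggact
Stat2: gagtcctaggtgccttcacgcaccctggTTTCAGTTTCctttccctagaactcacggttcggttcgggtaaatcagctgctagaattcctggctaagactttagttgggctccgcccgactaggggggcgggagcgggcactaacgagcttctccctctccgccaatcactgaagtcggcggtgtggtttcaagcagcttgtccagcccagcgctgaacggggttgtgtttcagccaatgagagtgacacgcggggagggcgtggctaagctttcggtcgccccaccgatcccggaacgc

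RefSeq promoters were found for 32 of the 39 members, with 36 windows of 300 bases in all. The GAAA pair occurred on either strand in 14 of these 36 windows (38.9%), each of a different gene, against 3.44% of all 32851 promoters of the same length. The GAS-type letters TTCNNNGAA occurred in 7 of the 36 (19.4%), against 8.3% of all promoters. Overlapping matches were counted separately within a window. Among the 7 members that fell and had a promoter, the GAAA pair was found in the 4 printed above. Psmb10, the member that rose, had no match of it, and 3 of the 9 matched members that passed neither way had one, namely B2m, Ifitm2 and Ifitm3. The motif was also found for 7 of the 15 matched members under the filter on low values. Usp18, Parp9, Parp14, Tap2, Ifi27, Rtp4 and Nlrc5 had no promoter entry.

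The RNA of the targeted gene itself was above its WT level in the libraries labelled FHL3 KO. Fhl3 (chr4:124700701-124708611, GRCm38) was at 27.8, 30.0 and 33.7 FPKM in WT, against 57.2, 53.5 and 58.9 FPKM in those labelled FHL3 KO (log2 change 0.87, SE 0.092, limma adjusted p = 0.000547). The RNA level by itself does not bear out the label, but neither does it show whether the protein was lost, which was not measured here. These libraries are therefore called KO-labelled below, and a rise or fall is theirs relative to WT. Of 12528 genes tested, 5112 (40.8%) passed, 19.7% as higher and 21.2% as lower, so any set of genes is read against these shares. With each library scaled to the same sum, 36.1% of 4664 calls were higher, against 48.2% of the 5112, and the median of all genes moved from -0.01 to -0.10 on the log2 scale. Without WT replicate 2, 3272 genes passed. WT replicate 1 differed from the rest in 63 genes, each over 1 FPKM and over 10 times its level in any of the others, including the liver gene Alb at 56.0 FPKM. Its 7 liver markers summed to 108 FPKM, against at most 0.022 elsewhere. Chromosome 8 also stood apart, with 51.5% of its 676 tested genes higher and 7.4% lower. Without WT replicate 1, all 9 members that passed with it passed in the same direction.

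Many of the genes were barely expressed, and among those that could be tested more fell than rose in the KO-labelled libraries. Of the 39 members, 20 reached a mean of 1 FPKM in a group and were tested, and 19 did not. Of the 20, 8 fell (40.0%, against 21.2% of all tested genes), 1 rose (5.0%, against 19.7%) and 11 passed neither way. Those that fell were Stat2, Irf9, Ddx58, Xaf1, Isg15, Ifit2, Bst2 and Ifi27, and Psmb10 rose. The median log2 change of the 20 was -0.28, against -0.01 over all tested genes, and 16 of the 20 had a lower mean, against 50.4% of all. Without WT replicate 2, 5 members fell, and Irf9, Bst2 and Ifi27 no longer passed. The plot of log2 changes sets the 20 in order of their change, with intervals.

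**Figure D1:**
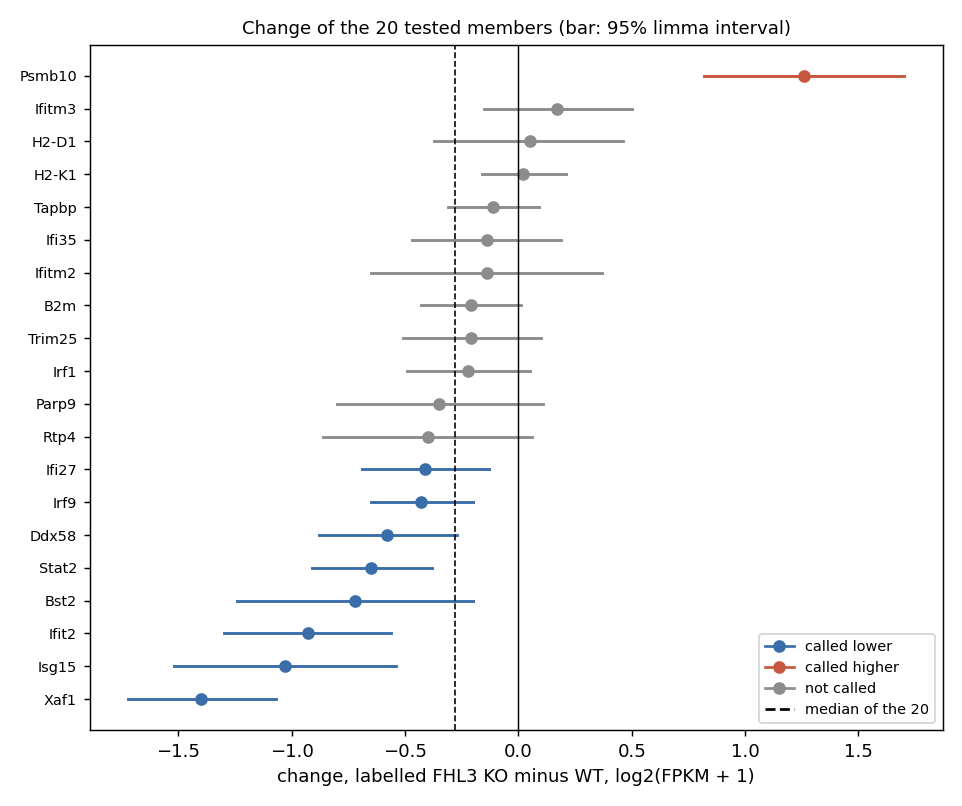
Log2 change of FPKM + 1 (KO-labelled libraries minus WT) for the 20 tested members, in order of the change, with the limma 95% interval as bars. The solid line marks no change and the dashed line the median of the 20, -0.28, and colours mark the 8 members that fell, Psmb10 that rose and the 11 that passed neither way.

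The summed levels of cell type markers differed between the groups and are given here because interferon genes are also expressed by immune, endothelial and stromal cells. All 8 muscle markers, such as the creatine kinase Ckm, passed the filter in these cells. Of them 7 rose, and their summed FPKM ran from 4450 to 5164 in WT and from 9999 to 10746 in the KO-labelled libraries. Acta1, on chromosome 8, held the largest part of the muscle sum, with means of 1926.9 FPKM in WT and 5461.0 FPKM in the KO-labelled libraries. The 10 macrophage and leukocyte markers summed to between 4.95 and 8.46 FPKM in WT, and to between 2.58 and 3.32 FPKM in the KO-labelled libraries. Only Cd14 among them was tested, and it fell and held most of the sum, at 5.79, 3.9 and 4.48 FPKM in WT, against 2.38, 2.07 and 2.24 FPKM. Ptprc, the defining leukocyte antigen, was listed at 0 in every library but WT replicate 1, where it was at 0.00931 FPKM. Lymphocyte markers were listed at 0 in every library for 6 of 8, with sums of at most 0.153 FPKM. The 6 endothelial markers summed to between 0.669 and 1.44 FPKM in WT, and to between 0.0461 and 0.219 FPKM in the other group. Most of the endothelial sum was Tek, at 0.934, 0.885 and 0.524 FPKM in WT, against 0.0461, 0 and 0.134 FPKM, while Pecam1, Cdh5, Kdr, Tie1 and Esam were at most 0.18 FPKM and highest in WT replicate 1. Fibroblast markers rose for 2 and fell for 3 of 7 tested, with sums from 562 to 629 FPKM in WT, and from 294 to 331 FPKM in the KO-labelled libraries. By group mean, Dcn (151.9 to 12.1 FPKM), Postn (108.2 to 10.1 FPKM) and Col3a1 (201.6 to 122.8 FPKM) fell. Col1a1 (4.16 to 8.67 FPKM) and Pdgfrb (2.12 to 5.7 FPKM) rose. The part of these cell markers in the member results was not tested.

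The Stat2 and Irf9 subunits of the type I interferon complex both fell. Stat2 (ENSMUSG00000040033, chr10:128270559-128292849), which carries the signal from the receptor to the nucleus, stood at 12.6, 9.79 and 10.3 FPKM in WT, against 6.8, 6.12 and 6.76 FPKM in the KO-labelled libraries. Every KO-labelled library was below every WT library. Group means were 10.9 ± 1.49 and 6.56 ± 0.383 FPKM (SD, n = 3 each), the log2 change was -0.65 (SE 0.11, 95% interval -0.91 to -0.38), and the limma adjusted p was 0.00416. Irf9 (chr14:55603571-55610030), the DNA-binding subunit, was at 4.43, 4.22 and 4.1 FPKM in WT, against 3.05, 2.83 and 2.84 FPKM in the other group. The ranges did not overlap, with a log2 change of -0.43 (SE 0.097, limma adjusted p = 0.0117). The call did not hold after quantile normalization (-0.25, adjusted p = 0.0598) or without WT replicate 2 (-0.43, adjusted p = 0.052).

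Irf1, a transcription factor induced mainly by interferon gamma, did not pass. It was at 11.9, 12.6 and 13.9 FPKM in WT, against 10.9, 9.41 and 12.4 FPKM in the KO-labelled libraries, so that the groups overlapped (log2 change -0.22, interval -0.49 to 0.05, limma adjusted p = 0.166). After removing each library's trend with transcript length and GC content its log2 change was -0.35 with an adjusted p of 0.0231. Irf7, which drives the later wave of interferon production, was under 1 FPKM throughout, with 0.636, 0.634 and 0.861 FPKM in WT, against 0.298, 0.684 and 0.271 FPKM in the other group. Usp18, a protease that removes Isg15 from proteins and damps receptor signalling, was at 0.0825, 0.108 and 0.233 FPKM in WT. It was listed at 0 in 2 of the KO-labelled libraries and at 0.0825 FPKM in the third.

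Among the sensors of foreign RNA, Ddx58 fell. It encodes RIG-I, the helicase that detects short double-stranded RNA with a 5′ triphosphate. Ddx58 (chr4:40203773-40239828) was at 4.56, 3.73 and 3.3 FPKM in WT, against 2.06, 2.46 and 2.21 FPKM in the KO-labelled libraries, again without overlap. Group means were 3.86 ± 0.644 and 2.24 ± 0.202 FPKM (SD, n = 3 each), with a log2 change of -0.58 (SE 0.13, interval -0.88 to -0.27) and a limma adjusted p of 0.0112. Trim25, the ubiquitin ligase known to activate RIG-I, had overlapping groups at 6.88, 7.13 and 6.0 against 5.39, 6.76 and 4.89 FPKM (log2 change -0.21, interval -0.51 to 0.1, limma adjusted p = 0.237). Ifih1, which encodes the long-RNA sensor MDA5, was under the filter, at 0.813, 0.395 and 0.383 FPKM in WT, against 0.358, 0.234 and 0.319 FPKM in the other group. Ddx60, another helicase of this kind, was at 0.0137, 0.0408 and 0.0209 FPKM in WT, against 0.0581 FPKM and 0 in 2 libraries in the other group.

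The largest falls among the members were in antiviral effectors. Xaf1 (ENSMUSG00000040483, chr11:72301629-72313733), a binding partner of the apoptosis inhibitor XIAP, was at 22.7, 22.9 and 20.7 FPKM in WT, against 9.86, 6.97 and 6.75 FPKM in the KO-labelled libraries. The lowest WT library was above the highest of the other group by more than the spread within either. The WT mean was 2.81 times the other, and the log2 change of -1.4 (SE 0.14, interval -1.72 to -1.07, limma adjusted p = 0.00044) was exceeded in this direction by 1.21% of all tested genes. Ifit2 (ENSMUSG00000045932, chr19:34550694-34576419), whose protein hinders translation of viral RNA, was at 4.92, 5.01 and 3.59 FPKM in WT, against 2.23, 2.01 and 1.43 FPKM in the other group. Its WT mean was 2.39 times the other (log2 change -0.93, SE 0.16, limma adjusted p = 0.00391). Isg15 (ENSMUSG00000035692, chr4:156199424-156200818), a ubiquitin-like protein joined to other proteins, was at 2.81, 3.34 and 2.71 FPKM in WT, against 1.04, 0.41 and 1.5 FPKM in the KO-labelled libraries. Isg15 was the more scattered in the latter group, yet the ranges did not overlap (log2 change -1.03, SE 0.21, interval -1.52 to -0.54, limma adjusted p = 0.00777). Calls of Xaf1, Ifit2, Isg15, Stat2 and Ddx58 held under all 13 alternatives at the 0.05 threshold.

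The remaining effectors that fell, Bst2 and Ifi27, had calls that depended on the setting. Bst2 (chr8:71534255-71537456), which encodes tetherin, a membrane protein that holds budding viruses on the cell, was at 4.89, 7.47 and 6.45 FPKM in WT. In the KO-labelled libraries it was at 3.49, 2.26 and 4.7 FPKM, just below the lowest WT library at the highest. Its log2 change was -0.72 (SE 0.22, limma adjusted p = 0.0357), and the call held in 7 of 13 alternatives. It was lost without WT replicate 2 (adjusted p = 0.121), WT replicate 3 (0.0815), KO-labelled replicate 1 (0.0845) or KO-labelled replicate 2 (0.063), with no filter (0.123) and after quantile normalization (0.1). Of the 10 tested genes flanking Bst2 on chromosome 8, the same number on each side, 6 rose and 0 fell. Their median log2 change was 0.46, so Bst2 moved against its neighbours. Over the whole of chromosome 8, 51.5% of tested genes rose and 7.4% fell. Ifi27 (chr12:103434211-103440239), a small mitochondrial protein induced strongly by type I interferon, was at 73.3, 90.3 and 91.4 FPKM in WT, against 66.7, 55.6 and 68.8 FPKM in the other group. It had a log2 change of -0.41 (SE 0.12, limma adjusted p = 0.0297), and the call held in 8 of 13 alternatives. It was lost without WT replicate 2 (adjusted p = 0.107), WT replicate 3 (0.0831), KO-labelled replicate 1 (0.0622) or KO-labelled replicate 2 (0.0639), and with no filter (0.0876).

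The Ifitm genes, whose membrane proteins block fusion of viruses in endosomes, were the most abundant effectors and passed neither way. Ifitm3 was at 102.0, 121.5 and 137.2 FPKM in WT, against 134.7, 117.3 and 155.2 FPKM in the KO-labelled libraries (log2 change 0.17, interval -0.15 to 0.5, limma adjusted p = 0.345). Ifitm2 was at 79.6, 127.4 and 135.5 FPKM in WT, against 94.0, 87.3 and 125.1 FPKM in the other group (log2 change -0.14, interval -0.65 to 0.37, adjusted p = 0.634). The intervals of both genes include changes in either direction and do not show equal levels. Ifitm2 shares 268 bases, 40.9% of its exon bases, with the record Gm45717. That record stood at 30.7, 0.372 and 0.744 FPKM in WT, against 26.7, 22.2 and 0.0441 FPKM in the other group. The 3 libraries with the lowest Ifitm2 were those with the highest Gm45717, so the level of Ifitm2 is uncertain. In all, 17 members share exon bases with another record, among them Tapbp with its antisense record Gm19412 (24.9%) and Ifi35 with its antisense record Gm11626 (16.8%). Gm19412 was at most 0.832 FPKM and Gm11626 at most 0.139 FPKM in any library. The strand setting is not known, so reads of a member and its antisense record cannot be told apart. Of the 9 members that passed, Irf9 alone shares exon bases (2.28%, with Rnf31).

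**Figure D2:**
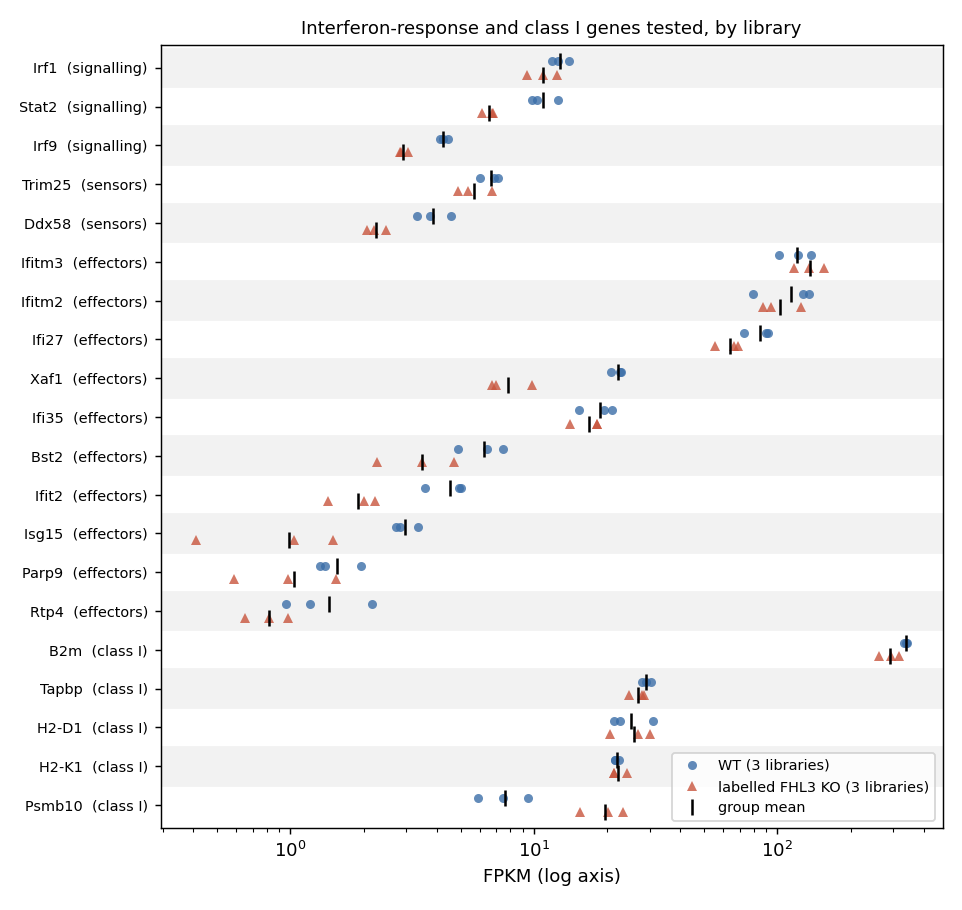
FPKM on a log axis of the tested members in each library, with circles for WT libraries, triangles for KO-labelled libraries and short lines as group means (n = 3 each). Xaf1, Ifit2, Isg15, Stat2 and Ddx58 show WT points above all points of the other group, Psmb10 the opposite order, and H2-D1 and H2-K1 overlap at 20.5 to 31.0 FPKM.

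Of the remaining tested effectors, none passed. Ifi35, an interferon-induced leucine zipper protein, was at 18.6 ± 2.86 and 16.8 ± 2.31 FPKM (SD, n = 3 each; limma adjusted p = 0.459), with -0.31 and an adjusted p of 0.0236 after length and GC correction. Parp9, a partner of the ligase Dtx3l, was at 1.95, 1.39 and 1.33 FPKM in WT, against 0.588, 1.54 and 0.978 FPKM in the KO-labelled libraries (log2 change -0.35, limma adjusted p = 0.192). Without KO-labelled replicate 2, the highest of its group, its log2 change was -0.52 with an adjusted p of 0.0495. Rtp4, a receptor transporter induced by interferon, was at 2.17, 1.2 and 0.958 FPKM against 0.98, 0.815 and 0.649 FPKM (log2 change -0.4, adjusted p = 0.139). In Rtp4 the highest WT library was WT replicate 1, and the groups overlapped by a narrow margin.

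The classical interferon-induced genes Ifit1, Ifit3, Oas1a, Rsad2 and Ifi44 were near the floor of the measurement in both groups. The 19 members under the filter never exceeded 1.19 FPKM in a library, the highest value being that of Dtx3l in WT replicate 1, and 10 of them were listed at 0 in at least 1 library. All KO-labelled libraries were below all WT libraries for 6 of the 19 (Ifit3, Ifit3b, Oas1a, Ifih1, Usp18 and Nlrc5) and above them for Tap2, while 12 overlapped. For Usp18 this order rests on a difference beyond the digits given, since its lowest WT and highest KO-labelled value both round to 0.0825 FPKM. Over all 12528 tested genes 53.8% had groups without overlap, 26.9% in each direction, and among the 20 tested members 9 were lower and 1 higher without overlap. These shares leave out genes under the filter, so they are no background for the 19, for which no such share was taken. Oas1a, an oligoadenylate synthetase activated by double-stranded RNA, was at 0.214, 0.161 and 0.286 FPKM in WT. In all 3 KO-labelled libraries its value was 0. Ifit3 was at 0.498, 0.459 and 0.569 FPKM against 0.146, 0.262 and 0.304 FPKM. Its near copy Ifit3b was at 0.192, 0.137 and 0.108 FPKM against 0.0538 FPKM and 0 in 2 libraries.

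Tested with no filter on low values, Oas1a (limma adjusted p = 0.0103), Ifit3b (0.035) and Ifit3 (0.0432) passed as lower. The longest reading frames of Ifit3 and Ifit3b are identical at 99.1% of their aligned bases, and the sources used here do not say how reads shared by copies were counted, so their split is uncertain. Ifit1, the founding member of the family, showed no such order, at 0.245, 0.205 and 0.21 FPKM in WT, against 0.267, 0.111 and 0.22 FPKM in the other group. Rsad2, which encodes viperin, an enzyme that makes a chain-terminating nucleotide, was at 0.0629, 0.0882 and 0.0265 FPKM in WT, against 0.0395 FPKM and 0 in 2 libraries in the other group. Groups overlapped for Oasl1 and Oasl2, relatives of the synthetases. Oasl1 was at 0, 0.0195 and 0 FPKM in WT, against 0, 0.0452 and 0.0164 FPKM in the other group, and Oasl2 lay between 0.205 and 0.434 FPKM. Ifi44 was at 0.0358 FPKM and 0 in 2 libraries in WT, against 0.0326, 0.0508 and 0.0116 FPKM in the KO-labelled libraries. The ligase Dtx3l, at 0.728 to 1.19 FPKM, and Parp14, at 0.0991 to 0.409 FPKM, overlapped as well.

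**Figure D3:**
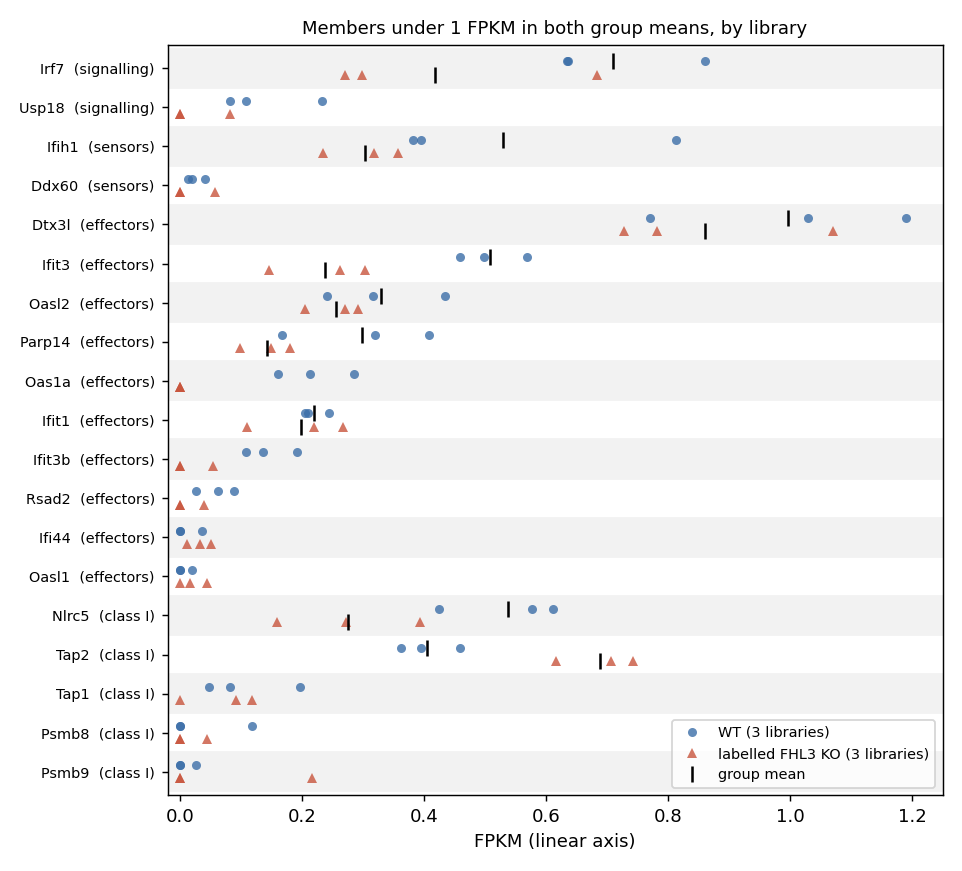
FPKM of the 19 members under the filter in each library, with points as libraries and, only where no library is listed at 0, short lines as group means (n = 3 each). No value exceeds 1.19 FPKM, and Oas1a lies at 0 in all 3 KO-labelled libraries.

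Of the 5 tested class I antigen presentation genes, Psmb10 rose and the other 4, B2m, H2-K1, H2-D1 and Tapbp, passed neither way. B2m (chr2:122147686-122153083), the invariant light chain, was the most abundant member, at 336.8, 331.1 and 340.9 FPKM in WT, against 292.3, 317.6 and 262.3 FPKM in the KO-labelled libraries. All KO-labelled libraries were below WT, but the log2 change of -0.21 (interval -0.43 to 0.01) did not pass (limma adjusted p = 0.106). It passed as lower after quantile normalization (-0.5, adjusted p = 0.0163), with equal sums (-0.32, 0.0399) and without KO-labelled replicate 2 (-0.28, 0.0495), and its sign turned after length and GC correction (0.18, 0.134). The heavy chain H2-K1 (chr17:33996017-34000347) was at 22.4, 21.6 and 21.6 FPKM against 21.3, 21.4 and 24.1 FPKM, a log2 change of 0.02 whose interval ran from -0.16 to 0.21 (limma adjusted p = 0.83). H2-D1 (chr17:35262730-35267499) was at 31.0, 21.4 and 22.5 FPKM against 26.9, 30.1 and 20.5 FPKM (log2 change 0.05, interval -0.37 to 0.46, adjusted p = 0.849). Their longest reading frames are identical at 88.3% of aligned bases, so reads may be split between them. The sign of both heavy chains turned under several scalings, each time without passing.

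Genes for peptide loading were measured mainly through Tapbp, the tapasin gene. It was at 27.8, 28.8 and 30.4 FPKM in WT, against 27.9, 24.5 and 28.3 FPKM in the KO-labelled libraries (log2 change -0.11, interval -0.31 to 0.09, limma adjusted p = 0.353), and passed as lower after length and GC correction (-0.31, adjusted p = 0.00915). The transporter subunit Tap1 was at 0.082, 0.048 and 0.197 FPKM in WT, against 0, 0.0915 and 0.118 FPKM in the other group. Tap2 was at 0.46, 0.395 and 0.362 FPKM against 0.616, 0.706 and 0.743 FPKM, the only member under the filter with higher values throughout in the KO-labelled libraries (adjusted p = 0.0541 with no filter). Nlrc5, the transactivator of class I genes, was lower throughout, at 0.612, 0.577 and 0.425 FPKM against 0.16, 0.273 and 0.393 FPKM (adjusted p = 0.112 with no filter). B2m, H2-K1, H2-D1 and Tapbp were thus measured at 20 FPKM or more while both transporter subunits stayed under 1 FPKM.

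The immunoproteasome replaces 3 catalytic subunits of the standard proteasome with interferon-induced ones, and of these only the beta2i subunit Psmb10 passed the filter. Psmb10 (ENSMUSG00000031897, chr8:105935735-105938444) was at 5.89, 7.5 and 9.48 FPKM in WT, against 20.2, 15.5 and 23.2 FPKM in the KO-labelled libraries. The lowest of the latter was above the highest WT library. Group means were 7.63 ± 1.8 and 19.6 ± 3.9 FPKM (SD, n = 3 each), a ratio of 2.58, with a log2 change of 1.26 (SE 0.19, interval 0.82 to 1.7, limma adjusted p = 0.00231), and the call held under all 13 alternatives. Psmb8, the beta5i subunit, was at 0.119 FPKM in WT replicate 1, at 0.0449 FPKM in KO-labelled replicate 1 and listed at 0 in the other 4 libraries. Psmb9, the beta1i subunit, was at 0.0272 and 0.216 FPKM in the same libraries and at 0 in the other 4.

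Psmb10 was set against Psmb7, the standard subunit whose place it takes. Psmb7 was at 115.7, 141.0 and 163.6 FPKM in WT, against 213.4, 196.8 and 223.2 FPKM in the KO-labelled libraries, and it rose too (log2 change 0.6, limma adjusted p = 0.00984). Psmb10 made up 4.84%, 5.05% and 5.48% of the summed FPKM of the pair in WT and 8.65%, 7.3% and 9.43% in the other group. The share differed by 3.33 percentage points without overlap (exact two-sided permutation p = 0.1, the smallest that 3 against 3 allows; 0.3 adjusted over the 3 shares), and by 1.1 points after length and GC correction. The other standard subunits, Psmb6 (log2 change 0.41, adjusted p = 0.0912) and Psmb5 (0.28, adjusted p = 0.369), did not pass. The share of Psmb8 was 0.26% in WT replicate 1 and 0.0544% in KO-labelled replicate 1, and that of Psmb9 was 0.0208% and 0.0952% there (exact p = 1 for both).

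**Figure D4:**
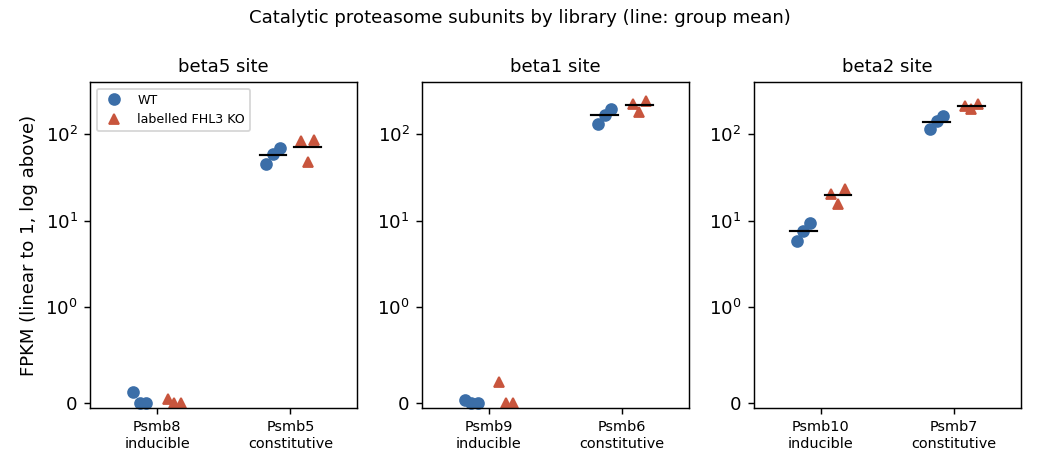
FPKM of the interferon-induced catalytic subunits Psmb8, Psmb9 and Psmb10 and of the standard subunits Psmb5, Psmb6 and Psmb7 in each library, on an axis linear up to 1 and logarithmic above. Lines are group means (n = 3 each), left out for Psmb8 and Psmb9, which are listed at 0 in 4 of 6 libraries, while Psmb10 lies between 5.89 and 23.2 FPKM.

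The rise of Psmb10 lay on a chromosome where rises were common. The median log2 change of the 676 tested chromosome 8 genes was 0.37, and 51.5% of them rose and 7.4% fell. Of the 10 tested genes flanking Psmb10, the same number on each side, 7 rose and 0 fell, with a median of 0.525. Among them was the tRNA-modifying enzyme Dus2 at 1.04. The change of Psmb10 was larger than that of 97.5% of tested chromosome 8 genes and of 98.7% of all tested genes. Of the 18 tested members on other chromosomes, 0 rose and 7 fell. Among all tested genes outside chromosome 8, 17.8% rose, and over all chromosomes 21.2% of tested genes fell. Xaf1, on chromosome 11, had 1 riser and 2 fallers among its 10 flanking tested genes, with a median of -0.02. The riser was Mybbp1a at 0.26, and the fallers were Ankfy1 at -0.41 and Slc13a5 at -1.13. Slc13a5, the tested gene next to Xaf1, fell from 1.4 to 0.0989 FPKM (limma adjusted p = 0.000588). The part of the chromosome-wide shift in the Psmb10 result was not tested.

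The upstream end of the pathway was read from lists of other pathway genes. No interferon gene reached the filter: of 11 ligand genes, which also count Il6 and Tnf, 0 passed the filter and 7 were listed at 0 in every library (Ifnb1, Ifna1, Ifna2, Ifna4, Ifna5, Ifnl2 and Ifnl3). Ifng was at 0.118, 0.187 and 0.212 FPKM in WT, against 0.0436 FPKM and 0 in 2 libraries in the other group. The type I receptor chains did not pass, with Ifnar1 at 16.9 and 15.0 FPKM (log2 change -0.16, limma adjusted p = 0.274) and Ifnar2 at 13.1 and 14.6 FPKM (0.14, 0.364). The receptor kinases Jak1 (27.8 and 22.1 FPKM, log2 change -0.31, adjusted p = 0.0963) and Tyk2 (6.49 and 6.1 FPKM, -0.08, 0.619) did not pass either. Jak1 passed as lower after length and GC correction (-0.29, adjusted p = 0.0422) and without KO-labelled replicate 2 (-0.42, adjusted p = 0.0378). The receptor chains were thus measured in cells in which the listed type I ligands were at 0 in every library, except Ifne at 0.0695 FPKM in WT replicate 2.

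Of the 15 tested receptor and signalling genes, 5 fell and 1 rose, with a median log2 change of -0.19. Among all tested genes 21.2% fell and 19.7% rose. Jak2, a kinase of the interferon gamma receptor, was at 6.5, 5.22 and 4.63 FPKM against 2.02, 2.09 and 2.01 FPKM (log2 change -1.08, limma adjusted p = 0.000946). Ifngr1, the ligand-binding chain of that receptor, fell from 21.6 to 16.8 FPKM (-0.35, adjusted p = 0.0231), a call lost without WT replicate 1, WT replicate 2, KO-labelled replicate 1 or KO-labelled replicate 3 (highest adjusted p 0.0843). The feedback inhibitors Socs3 (7.95 to 6.07 FPKM, adjusted p = 0.0487, up to 0.164 over the alternatives) and Pias1 (6.05 to 4.29 FPKM, adjusted p = 0.049) fell by margins close to the threshold, and the change of Pias1 was -0.00097 after length and GC correction (adjusted p = 0.992). Irf2, a repressor of interferon-stimulated elements on chromosome 8, rose from 3.2 to 5.45 FPKM (0.61, adjusted p = 0.0103).

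The nucleic acid sensing list held 13 tested genes, of which 6 fell and 1 rose (median -0.34). The shares over all tested genes were 21.2% and 19.7%. Eif2ak2, which encodes the RNA-activated kinase PKR that stops translation, fell from 4.64 to 1.63 FPKM (log2 change -1.1, limma adjusted p = 0.00251). The kinase Tbk1, which activates Irf3, fell from 15.0 to 9.98 FPKM (-0.54, adjusted p = 0.00708). Ikbke fell from 2.75 to 1.55 FPKM (adjusted p = 0.0182), a call lost in 4 alternatives (highest adjusted p 0.0785). Mavs, the mitochondrial adaptor below RIG-I, rose from 8.44 to 10.4 FPKM (0.27, adjusted p = 0.0342), a call lost in 9 alternatives, with an adjusted p of 0.229 at equal sums.

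Other interferon-induced genes fell for 14 and rose for 2 of 27 tested (median -0.37), while 21.2% of all tested genes fell and 19.7% rose. The steepest by log2 change among those named was Ifi27l2a, a relative of Ifi27, at 8.96, 18.7 and 17.5 FPKM in WT, against 0.641, 0.867 and 1.93 FPKM in the KO-labelled libraries (-2.89, limma adjusted p = 0.000563). Ly6e, which encodes a membrane protein, was at 269.2, 282.7 and 284.6 FPKM against 63.1, 77.1 and 70.7 FPKM (-1.98, adjusted p = 1.97e-05). Both groups of Ly6e were tight and far apart, and Ly6e was more abundant in WT than any member but B2m. Ifi204, a DNA-binding p200 protein, fell from 16.9 to 6.73 FPKM (-1.22, adjusted p = 0.000239), and the guanylate-binding protein Gbp2 from 1.94 to 0.423 FPKM (-1.05, adjusted p = 0.00206). The 2 that rose were Tor3a, an ATPase of the endoplasmic reticulum (31.9 to 47.4 FPKM, 0.55, adjusted p = 0.00218), and the GTPase Igtp (1.35 to 2.34 FPKM, 0.49, adjusted p = 0.0352), whose call was lost in 8 alternatives.

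Other class I genes were split, with 6 that fell and 4 that rose of 19 tested (median -0.09). Over all tested genes 21.2% fell and 19.7% rose. The chaperone Canx, which holds new heavy chains, fell from 129.4 to 79.7 FPKM (log2 change -0.69, limma adjusted p = 0.00223), the peptidase Lnpep from 15.3 to 6.83 FPKM (-1.06, adjusted p = 0.00506), and the non-classical heavy chain H2-Q4 from 7.87 to 4.87 FPKM (-0.6, adjusted p = 0.00559). H2-T23, the mouse counterpart of HLA-E, rose from 7.14 to 11.9 FPKM (0.67, adjusted p = 0.00215). Rfxank, part of a promoter-binding complex of these genes and located on chromosome 8, rose from 3.3 to 5.08 FPKM (0.5, adjusted p = 0.0101). The proteasome activator Psme3 rose from 38.7 to 48.1 FPKM (0.31, adjusted p = 0.0242), a call lost in 6 alternatives, with 0.184 at equal sums. H2-Ke6, on the list by its name but known as a steroid dehydrogenase that presents no peptide, rose from 4.93 to 11.6 FPKM (1.05, adjusted p = 0.0123), with 0.0582 with no filter and 0.0562 after length and GC correction. Class II genes, marks of professional presenting cells, reached the filter for 1 of 8 (H2-DMa, which did not pass), and H2-Aa, H2-Ab1 and H2-Eb1 were above 0 only in WT replicate 1, at 0.386, 0.087 and 0.0432 FPKM.

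Over the 5 lists of other pathway genes together, 74 of the 123 genes in the table were tested, of which 31 fell (41.9%, against 21.2% of all tested genes) and 8 rose (10.8%, against 19.7%). The median log2 change was -0.30. Without WT replicate 2, 18 fell and 5 rose, without KO-labelled replicate 1, 20 fell, and without KO-labelled replicate 2, 5 rose. At equal sums 33 fell and 5 rose. The plot of the other pathway genes shows their changes by list.

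**Figure D5:**
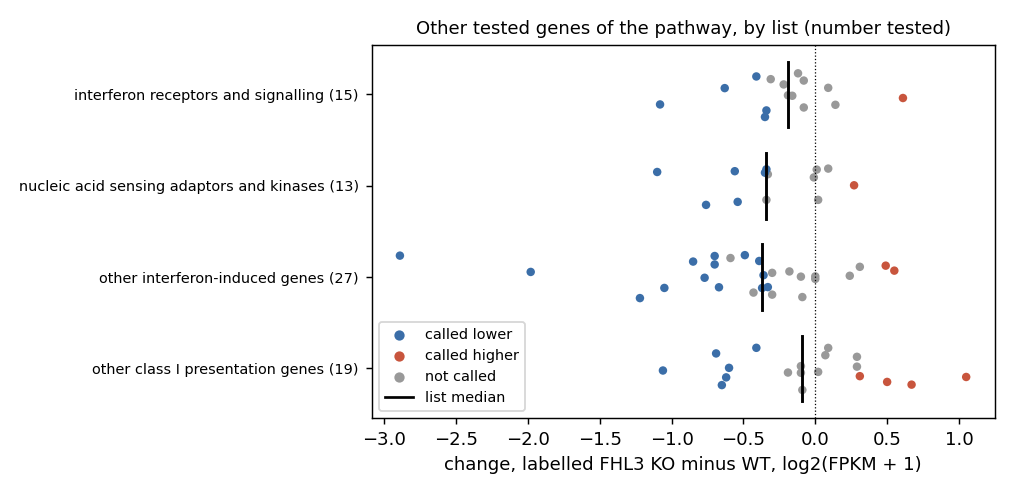
Log2 change of FPKM + 1 (KO-labelled libraries minus WT) of each tested gene of the other pathway lists, 1 point per gene, coloured by whether it fell, rose or passed neither way in limma. The 27 other interferon-induced genes reach down to -2.89 (Ifi27l2a), while the 19 other class I genes lie on both sides of 0, with a median of -0.09.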

How the data were processed

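RNA was measured in 6 libraries of C2C12 cells, 3 WT and 3 labelled FHL3 KO, from day 4. Per the submitters' processing notes, the tools were DESeq2 1.28.1, featureCounts 2.0.1, HISAT2 2.2.1 and Trim Galore 0.6.6, with the build mm10 and without a stated role. Not given in the sources used here are the annotation, the strand setting and the treatment of shared reads. The authors deposited decimal values that were taken as FPKM from their range and totals, since the header names no unit. The table has 55420 rows, of which 7 rows with 3 repeated IDs were left out, and 94.1% of the IDs were found in GENCODE M21 (GRCm38), which gave coordinates. FPKM summed to between 424987 and 494176 per library. The commonest value of genes under 150 bases gave relative depths from 0.862 to 1, while the number of fragments is unknown, so intervals for counting error cannot be given.

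The filter kept the 12528 genes whose mean reached 1 FPKM in either group. Log2 values, with 1 added to each FPKM, went into limma 3.58.1 (R 4.3.3) with a mean-variance trend, two-sided and without covariates, with Benjamini-Hochberg adjustment over all tested genes and a threshold of 0.05. Fold changes on this scale understate the change of low genes. Proteasome shares were compared by exact permutation (SciPy 1.17.1). The steps were tested on simulated data. An exact 0 can be a failed estimate, so genes listed at 0 are given by library. The fit dropped no sample.

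The 39 members and the lists were chosen with earlier results of these data known. All members were reported, with Fhl3, up to 4 called genes with the smallest p of each pathway list, and the receptors, kinases, Ifnb1, Psmb5, Psmb6 and Psmb7 whatever their result, except that some genes under this rule are not reported here by name. Gm45717, Dus2, Alb, Tek, Ptprc, Cd14, Ckm, the other ligands and class II genes, Pias1 and Mavs beyond that rule, and the 4 printed promoters were picked with their values in view. The alternatives tried were no filter, a pseudocount of 0.1, quantile normalization, median-of-ratios scaling, equal sums per library, correction of each library for length and GC content by splines (5 degrees of freedom), a block on the replicate number, each library left out in turn, and a threshold of 0.01.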

Additional observations from a re-analysis of the deposited data

How the results depend on the processing

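Psmb10 was the member that rose under every alternative run. Of 260 values of tested members under an alternative, 228 kept their direction and side of the threshold, 13 lost the call, 7 gained it and 12 changed sign without passing. The 8 members that fell were 7 to 11 under the other scalings, pseudocount and filter, 5 to 8 when a library was left out (5 without WT replicate 2), and 4 at a threshold of 0.01. These counts are not always of the same genes: with no filter and after quantile normalization 7 of the 9 calls, Psmb10 included, were kept. Bst2 and Ifi27 were lost with no filter, where Oas1a, Ifit3 and Ifit3b passed, and Irf9 and Bst2 were lost after quantile normalization, where B2m passed. The median log2 change of the members ran from -0.33 to -0.17. The 31 pathway genes that fell were 18 to 31 when a library was left out and 16 at 0.01. The 8 that rose were 5 to 7 when a library was left out, 5 at equal sums and 2 at 0.01. The 5112 calls over all genes were 3272 to 5273 when a library was left out and 2695 at 0.01. A stricter threshold gives fewer calls by construction, and the cause of the other changes was not tested.

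Signs turned for B2m after length and GC correction (0.18). They turned for H2-D1 after quantile normalization (-0.01), at equal sums (-0.06), after length and GC correction (-0.11) and without WT replicate 2 (-0.05), WT replicate 3 (-0.02) or KO-labelled replicate 2 (-0.07), and leaving out WT replicate 1 gave 0.21. For H2-K1 the same 3 scalings gave -0.02, -0.08 and -0.16, and leaving out a library gave -0.03 (KO-labelled replicate 3) to 0.05. Ifitm2 ran from -0.38 to 0.0016 (without WT replicate 3) when a library was left out, and Tyk2 at 0.02 after quantile normalization. The difference in the Psmb9 share turned to -0.0111 percentage points after length and GC correction and ran from -0.00694 (without KO-labelled replicate 1) to 0.0407 when a library was left out, that of Psmb8 from -0.112 to 0.0181 (without WT replicate 1), and that of Psmb10 from 2.85 to 3.91.

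Replicate numbers are shared by the groups. Correlations of deviations between same-numbered libraries were -0.127, -0.063 and 0.316, against -0.376 to 0.368 for the other pairs. With 3 libraries per group, these correlations cannot show whether same-numbered libraries form pairs. With the replicate block 4759 genes were called, with 1 member higher and 8 lower, and 9 pathway genes higher and 27 lower. Members under 1 FPKM rest on few fragments of unknown number, so differences among them may not be detectable at this depth.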
